A study of Mus musculus with 5 samples.

Results

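The signalling route from leukemia inhibitory factor (LIF) to the transcription factor STAT3 was followed through 9 genes on 5 Affymetrix GeneChip Mouse Gene 1.0 ST arrays of mouse embryonic stem cells (ESCs) and of ESC-like cells grown out of teratomas. The genes were Lif, Lifr, Il6st, Osmr, Jak1, Stat3, Socs3, Pim1 and Pim3. Each was read from probe sets annotated with that symbol alone, and where a gene had several, the one with the highest mean over the 5 arrays was used. All 9 were found among the 19938 genes with a probe set of their own, and 7 of them lay above 7.49, the median of all array values, on every array. Lif and Osmr had a mean above it only with the heterologous array included, their means over the other 4 arrays being 7.46 and 7.21.

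The parental ESCs (1 array) were a B6CBAF1 line that had not been injected. ESC-like cells were repopulated from teratomas that formed after subcutaneous injection of these ESCs alone into B6CBAF1 mice (homologous, 1 array), of the ESCs alone into B6D2F1 mice (heterologous, 1 array), or of the ESCs together with B6D2F1 embryonic fibroblasts into B6D2F1 mice (co-injection, 2 arrays named batch 1 and batch 2). All cells were grown on mitotically inactivated fibroblasts of ICR mice as a feeder layer, and no step that removed the feeder cells before RNA extraction is named. The sample labels give 1000 units/ml of LIF for both parental ESCs and ESC-like cells, whereas the methods of the study give a higher concentration for cells taken from teratomas. LIF concentration and passage through a teratoma cannot be told apart in the differences from parental ESCs. The heterologous cells came from a single teratoma, and every comparison with parental ESCs uses the same parental array.

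LIF keeps mouse ESCs self-renewing. It binds the LIF receptor, encoded by Lifr, which pairs with the shared signal transducer gp130, encoded by Il6st. JAK kinases bound to the receptor tails then phosphorylate STAT3, which enters the nucleus and switches on genes of the pluripotent state together with its own inhibitor Socs3. The oncostatin M receptor, encoded by Osmr, pairs with the same gp130 chain and is known from fibroblasts and other mesenchymal cells.

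Osmr was the gene of the route that differed most between the cell populations, while Stat3 itself stayed near one level. In the heterologous array, 2 of the 9 genes differed more than 2-fold from parental ESCs, Osmr being higher and Pim3 lower, where 5.93% of all genes did. In the homologous array, Osmr alone passed 2-fold, against 3.05% of all genes, and in the mean of the co-injection arrays none did, against 2.09%. At 1.5-fold, 4 of the 9 genes passed after heterologous injection (13.2% of all genes), 2 after homologous injection (9.51%) and 1 after co-injection (6.91%).

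The size of the differences can be set beside the co-injection pair, the only condition with more than 1 array. The study calls these arrays batches and does not say whether they came from separate teratomas. Their spread may therefore be smaller than that between independent lines. For genes with a mean above the median of all values, 95% of the absolute differences between batch 1 and batch 2 were within 0.21 on the log2 scale. The differences from parental ESCs exceeded this size for 7 of the 9 genes after heterologous injection, for 3 after homologous injection and for 5 after co-injection, and for 48.4%, 45.6% and 39.3% of all genes above the median value in the same order. Between the heterologous and homologous arrays 6 of the 9 exceeded it (41.1% of these genes), and between the co-injection and heterologous arrays 7 did (42.1%). For genes whose co-injection mean was below the median, as for Lif and Osmr, the corresponding bound of the pair was 0.29, and the batches differed by 0.33 for Osmr. The median absolute difference of the 9 genes was 0.50, 0.087 and 0.32 in the same order, beside 0.20, 0.19 and 0.16 for all genes above the median value. The signed medians of the 9 genes were 0.092, −0.019 and −0.19, beside −0.040, −0.010 and 0.038 over all genes. Apart from co-injection (n = 2) each condition had 1 array, so these differences have no replicate check and their precision is limited by the number of arrays.

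**Figure D1:**
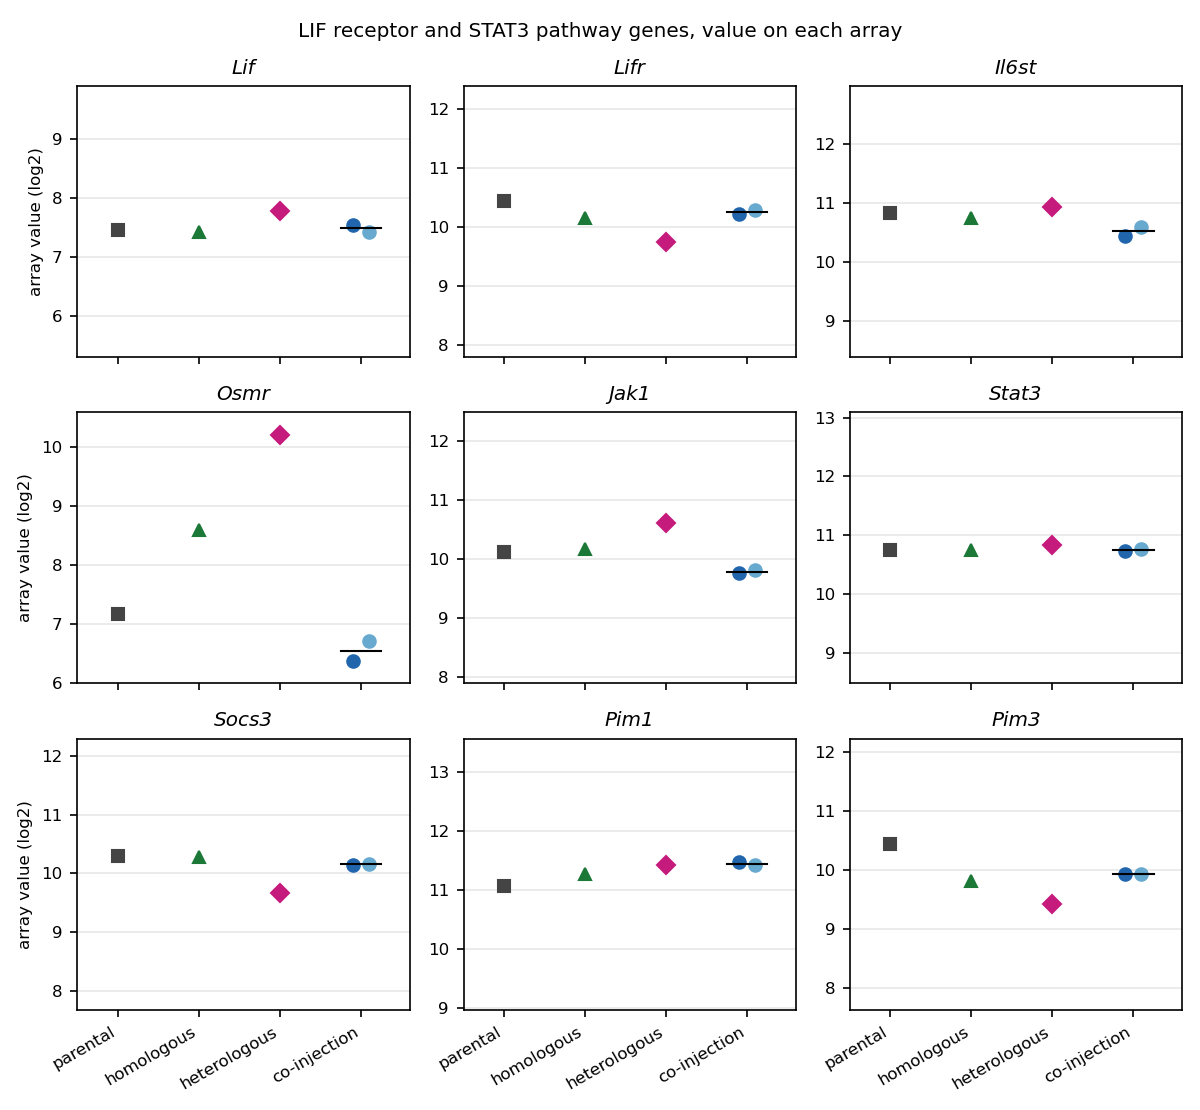
Log2 array value (vertical axis, the same span in each panel) of the 9 genes by cell population (horizontal axis). Each point is 1 array, and the bar is the mean of the 2 co-injection arrays. Osmr spans 3.84 log2 units, and the other genes span between 0.11 and 1.02.

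The ligand gene Lif had log2 values of 7.46 in parental ESCs, 7.42 in the homologous array, 7.79 in the heterologous array, and 7.55 and 7.43 in the co-injection arrays. The heterologous array was the highest, by 0.33 over parental ESCs, and the other 4 arrays lay within 0.13 of each other. The cells of all 5 arrays received LIF in the medium, so the level of this transcript does not give the amount of the protein that reached them.

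Lifr, the ligand-binding chain specific for LIF and its close relatives, was highest in parental ESCs at 10.44 and lowest in the heterologous array at 9.76. The homologous array was at 10.16, and the co-injection arrays at 10.22 and 10.29. The differences from parental ESCs were −0.28 (homologous), −0.68 (heterologous) and −0.19 ± 0.046 (co-injection, SD, n = 2), so the receptor was lower in all 4 ESC-like arrays but never by 2-fold. The homologous and co-injection arrays differed by less than 0.21, the bound given above for the co-injection pair over genes.

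Il6st, the gp130 chain that most receptors of this cytokine family share, was at 10.83 in parental ESCs, 10.74 in the homologous array, 10.92 in the heterologous array, and 10.44 and 10.58 in the co-injection arrays. Both co-injection arrays were the lowest, by 0.32 ± 0.10 (SD, n = 2) below parental ESCs, while the other 3 arrays lay close together. Relative to the heterologous array, the co-injection mean had a difference of −0.41 ± 0.10 (SD, n = 2).

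Osmr had a log2 value of 7.16 in parental ESCs and of 8.60 in the homologous array. It reached 10.21 in the heterologous array and lay at 6.37 and 6.70 in co-injection batches 1 and 2. The heterologous array was thus the highest, followed by the homologous array and parental ESCs, with both co-injection arrays the lowest. Osmr was 8.26-fold higher in the heterologous array than in parental ESCs (log2 difference 3.05), which was the 24th largest positive difference of 19938 genes. The homologous array exceeded parental ESCs 2.70-fold (1.43), ranking 76th. Both co-injection arrays lay below parental ESCs, with a mean difference of −0.63 ± 0.24 (SD, n = 2). The parental and co-injection values of Osmr were below the median of all values and signal over background was not analysed, so folds against these arrays may be lower bounds.

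Cells from B6D2F1 recipients with and without co-injected fibroblasts were also compared. The cells without fibroblasts are a single array from a single teratoma. The presence of fibroblasts and the particular teratoma or array therefore cannot be told apart, and the SDs are those of the co-injection pair. The heterologous array exceeded the co-injection mean 12.8-fold for Osmr (log2 difference of co-injection from heterologous −3.67 ± 0.24, SD, n = 2), the 15th lowest of 19938 genes. Of the 9 genes, Osmr was the only one past 2-fold in this comparison (3.35% of all genes). Jak1 joined it at 1.5-fold (8.02% of all genes). Between the 2 recipients of ESCs alone, Osmr was again the only one past 2-fold (3.06% of all genes), higher by 1.61 in the heterologous than in the homologous array, and Socs3 joined it at 1.5-fold (8.67% of all genes) with a difference of −0.62.

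**Figure D2:**
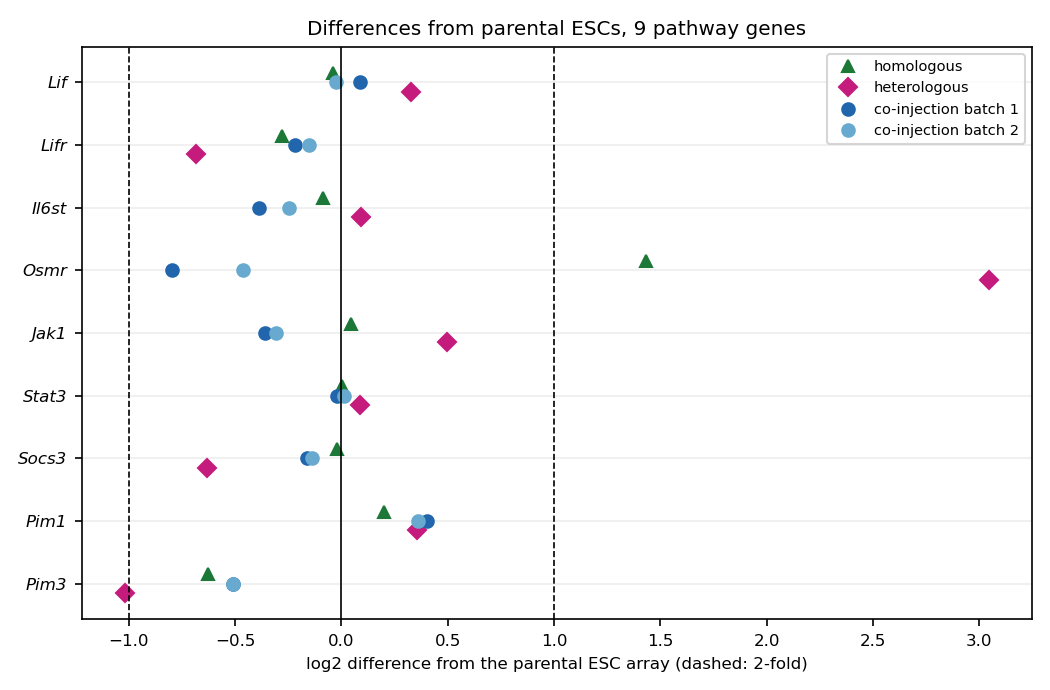
Log2 difference from the parental ESC array (horizontal axis) of the 9 genes (vertical axis) in each ESC-like array, 1 point per array; dashed lines mark 2-fold. Osmr is at 1.43 (homologous) and 3.05 (heterologous) and below 0 in both co-injection arrays, and Stat3 lies close to 0 in all 4.

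Markers of fibroblasts were highest in the heterologous array, as Osmr was. The mean log2 value over 24 fibroblast genes was 8.04 in parental ESCs, 8.44 in the homologous array, 9.65 in the heterologous array, and 7.71 in each co-injection array, which is the order seen for Osmr. Against parental ESCs, 15 of the 24 passed 2-fold upward and none downward in the heterologous array. The homologous array had 2 genes past 2-fold upward, and the co-injection mean had 4 past it downward, Lox being the lowest at −2.04. The list medians were 0.36 (homologous), 1.52 (heterologous) and −0.13 (co-injection), and 8 of the 24 were above parental ESCs in the co-injection mean. The mean over 8 genes of contractile cells was 8.59, 9.03 and 10.29 in parental, homologous and heterologous arrays, and 8.60 and 8.50 in the co-injection arrays. Of these 8, 7 passed 2-fold upward in the heterologous array and 0 in the homologous array. The co-injection mean ran from −1.48 ± 0.015 for Acta2 to 0.72 ± 0.17 for Cnn1 (SD, n = 2). Over all genes, 3.05% (homologous), 5.93% (heterologous) and 2.09% (co-injection) passed 2-fold from parental ESCs in either direction. The mean over 11 macrophage genes lay between 6.43 and 6.72 on the 5 arrays and that over 6 endothelial genes between 7.22 and 7.43. The macrophage mean covers genes that went different ways. Lyz2 was at 1.16 from parental ESCs in the heterologous array, though below the median of all values on every array. Cd68 was at −1.31 in the homologous array, −0.76 in the heterologous array and −0.85 ± 0.011 (SD, n = 2) after co-injection. No other macrophage or endothelial gene passed 2-fold from parental ESCs. The mean over 12 ESC markers was 11.79 in parental ESCs, 11.62 in the homologous array, 11.33 in the heterologous array, with 11.60 and 11.65 in the co-injection pair. Of these 12 genes, 2 (Zfp42 and Esrrb) passed 2-fold downward in heterologous cells and 0 in homologous or co-injection cells. In these bulk samples fewer cells of a type and less RNA per cell cannot be told apart, and the part of feeder or host fibroblasts in the Osmr values was not tested.

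**Figure D3:**
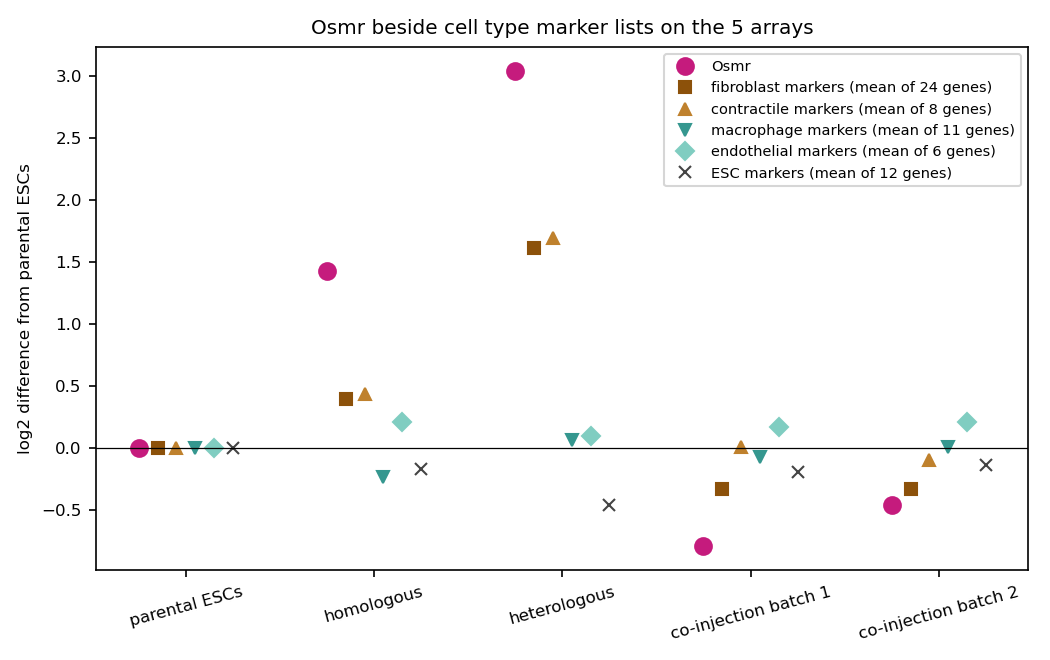
Log2 difference from parental ESCs (vertical axis) on each of the 5 arrays (horizontal axis) for Osmr and for the mean of each list of cell type markers. Osmr and the fibroblast list are both highest in the heterologous array and below parental ESCs in both co-injection arrays.

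The genes whose 5 values lay closest to those of Osmr, after each gene was centred on its own mean, were Timp2, Pdgfrb and Cav1. Their Euclidean distances over the 5 arrays were 0.19, 0.32 and 0.38. The search covered only the 11599 genes with a mean above the median of all values, so dimmer genes could not appear. Timp2 encodes an inhibitor of matrix proteases, Pdgfrb a growth factor receptor of mesenchymal cells and Cav1 the coat protein of caveolae. Timp2 was at 8.42 in parental ESCs, 9.81 in the homologous array, 11.55 in the heterologous array, and 7.65 and 7.79 in the co-injection arrays. Pdgfrb is also a member of the fibroblast list.

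Jak1, the kinase that gp130 receptors depend on most, had log2 values of 10.12 in parental ESCs, 10.16 (homologous) and 10.62 (heterologous). The co-injection arrays were the lowest, at 9.76 and 9.81. Relative to parental ESCs, Jak1 thus had a difference of 0.50 after heterologous injection and of −0.33 ± 0.035 (SD, n = 2) after co-injection. Against the heterologous array, the co-injection arrays were at −0.83 ± 0.035 (SD, n = 2), or 1.78-fold lower.

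Stat3, the factor that carries the signal to the nucleus, was at 10.75 in parental ESCs, 10.76 in the homologous array, 10.84 in the heterologous array, and 10.73 and 10.77 in the co-injection arrays. The 5 arrays spanned 0.11, the smallest range among the 9 genes, and no difference between conditions exceeded the spread of the co-injection pair over all genes. The arrays measure the transcript and not the phosphorylated protein through which the pathway acts.

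Socs3, the feedback inhibitor that STAT3 induces and that blocks JAK kinases at gp130, was at 10.30 in parental ESCs, 10.28 in the homologous array, 9.67 in the heterologous array, and 10.14 and 10.17 in the co-injection arrays. The heterologous array stood below the other 4, by 0.63 relative to parental ESCs, while the homologous array was within 0.019 of parental ESCs. A second probe set of Socs3 gave 8.07, 8.07 and 7.60 in parental, homologous and heterologous arrays and 8.15 and 8.19 in the co-injection arrays. On it the heterologous array was also the lowest, by 0.46, whereas the co-injection mean was above parental ESCs by 0.10 in place of −0.15.

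STAT proteins bind the palindrome TTCNNNGAA, so the promoters of the 9 genes were searched for these letters, which read the same on both strands. RefSeq promoters of 300 bases on the GRCm38.p6 build, reaching from 250 bases before the start to 50 after it, were held for all 9 genes, 11 promoters in all. Only the promoter of Socs3 had a match, TTCTTAGAA at positions −154 to −146 from the start, where 8.30% of 32851 promoters in the table had at least 1. The stricter TTCCNGGAA, whose matches are a subset of the first, was in 0 of the 11 and in 1.15% of all. The bases before the start are shown for Socs3, as the one gene with a match, and for Osmr, as the gene with the largest differences, with the matched letters in capitals. Both lie on the minus strand, Socs3 at chr11:117969367-117969616 and Osmr at chr15:6874314-6874563. A match describes these letters, and its absence says only that they are not in the window.

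Socs3: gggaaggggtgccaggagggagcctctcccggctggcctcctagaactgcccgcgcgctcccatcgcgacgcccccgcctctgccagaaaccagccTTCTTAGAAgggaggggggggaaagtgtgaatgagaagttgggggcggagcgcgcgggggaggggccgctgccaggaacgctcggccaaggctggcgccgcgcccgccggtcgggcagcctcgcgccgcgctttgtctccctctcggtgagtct

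Osmr: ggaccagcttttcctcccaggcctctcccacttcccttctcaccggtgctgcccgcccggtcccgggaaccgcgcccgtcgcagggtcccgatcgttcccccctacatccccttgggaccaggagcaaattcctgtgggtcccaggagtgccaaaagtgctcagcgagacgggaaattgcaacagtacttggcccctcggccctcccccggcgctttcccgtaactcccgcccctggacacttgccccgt

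The Pim genes encode serine/threonine kinases that promote survival and growth, and Pim1 and Pim3 are known to be induced by LIF in ESCs. They went opposite ways. Pim1 was lowest in parental ESCs at 11.06, followed by the homologous array at 11.26, the heterologous array at 11.42, and the co-injection arrays at 11.47 and 11.42. Its differences from parental ESCs were 0.20, 0.36 and 0.38 ± 0.031 (SD, n = 2), of which the first was within the spread of the co-injection pair over all genes. Pim3 was highest in parental ESCs at 10.44, followed by 9.93 in each co-injection array, 9.81 (homologous) and 9.42 (heterologous). Its differences were −0.63, −1.02 and −0.51 ± 0.00078 (SD, n = 2), so that the heterologous array was just past 2-fold. With cyclic loess applied to the values, this difference was −0.97 and no longer past 2-fold.

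The small SD of Pim3 is that of a single pair and does not describe the error of the other arrays. The genes nearest to Pim3 in their 5 centred values were Ticrr, Slc28a1 and Tbc1d10b, at distances of 0.033, 0.056 and 0.061. Pim2, the remaining member of the family, was at 9.98 in parental ESCs, 10.73 in the homologous array, 11.59 in the heterologous array, and 11.01 and 10.89 in the co-injection arrays. All ESC-like arrays exceeded parental ESCs, by 0.76, 1.61 and 0.98 ± 0.085 (SD, n = 2), although it is X-linked and 359 X-linked genes above the median value had median differences of −0.44, −0.47 and −0.50.

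The 9 genes fell partly into shared orders across the arrays, a grouping made after the values were seen. Lifr, Socs3 and Pim3 had their highest value in parental ESCs and their lowest in the heterologous array, an order held by 10.0% of all genes, by 4 of the 12 ESC markers (Nanog, Zfp42, Dppa5a and Esrrb) and by 4 of the 14 other inhibitors of the pathway. Socs3 held it on the brighter probe set only, where the homologous array was at −0.019 from parental ESCs. On its second probe set parental ESCs, at 8.07, were below both co-injection arrays, at 8.15 and 8.19. Il6st, Osmr and Jak1 had their highest value in the heterologous array and both co-injection arrays below parental and homologous cells, an order held by 4.09% of all genes and by 12 of the 24 fibroblast markers. For Il6st the heterologous array exceeded parental ESCs by 0.092 only. The shares over all genes include genes with equal values on 2 or more arrays (30.2%), which none of the 9 had. Lif, Stat3 and Pim1 followed neither order.

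Of the other genes of the cytokine family, few passed 2-fold. Among 7 ligands, Il11 was higher by 1.12 in the heterologous array than in parental ESCs, and none passed in the homologous or co-injection arrays. Osm, the ligand of the oncostatin M receptor, had the lowest difference of this list in each of the 3 comparisons, at −0.43, −0.92 and −0.38 ± 0.12 (SD, n = 2). Its values, from 6.04 to 6.97, were below the median of all values on every array. Those of Il11 were below that median in all but the heterologous array, where Il11 was at 8.16. Of 4 other receptors, Cntfr, which encodes the receptor for ciliary neurotrophic factor, was the one past 2-fold, with a difference of 1.03 in the heterologous array from parental ESCs. Its log2 value was 11.40 in parental ESCs, 10.50 in the homologous array, 12.43 in the heterologous array, and 11.06 and 11.19 in the co-injection arrays, so the heterologous array was the highest and the homologous array the lowest, 1.94 apart. Against the heterologous array, the co-injection mean was at −1.21 for Il11 and −1.31 for Cntfr.

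None of 2 further JAK kinases, 5 STAT factors, 14 inhibitors and 4 genes of the SHP2 branch passed 2-fold in any of the 5 comparisons. Jak2 was at 0.75 in the heterologous array and 0.32 in the homologous array relative to parental ESCs. Stat2, which carries interferon signals, had the highest difference of the STAT factors in the homologous array, at 0.84. Among the inhibitors, the phosphatase gene Ptpn6 was at 0.64 in the homologous array and Socs5 at 0.65 in the heterologous array, and the medians of the 14 were −0.061 (homologous), −0.13 (heterologous) and −0.039 (co-injection).

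Of 12 genes that STAT3 is known to switch on, 3 were above parental ESCs in the homologous array, 4 in the heterologous array and 4 in the co-injection mean, and the others were below. The list medians were −0.48, −0.18 and −0.14 in the same order, beside −0.010, −0.040 and 0.038 over all genes. Of the 12, 2 were more than 2-fold lower in the homologous array, 3 in the heterologous array and 1 in the co-injection mean. None was more than 2-fold higher in these comparisons. Over all genes, 3.05%, 5.93% and 2.09% passed 2-fold in either direction in the same order. Pramel7, a gene of the early embryo that sustains pluripotency downstream of LIF, was at 8.11 in parental ESCs, 5.62 in the homologous array, 5.60 in the heterologous array, and 5.74 and 5.75 in the co-injection arrays. All 4 ESC-like arrays lay close together and far below parental ESCs, with differences of −2.49, −2.51 and −2.37 ± 0.012 (SD, n = 2).

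Klf4, a factor of the naive state, was at 11.28 in parental ESCs, 10.21 in the homologous array, 9.86 in the heterologous array, and 10.48 and 10.55 in the co-injection arrays. Its differences were −1.08, −1.43 and −0.77 ± 0.051 (SD, n = 2). Tfcp2l1, which carries much of the LIF signal to the pluripotency network, followed the same order, at 11.75 in parental ESCs, 10.78 in the homologous array, 10.11 in the heterologous array, and 10.92 and 11.15 in the co-injection arrays. With Klf5 and Pramel7, these genes shared the order of Lifr, Pim3 and the brighter probe set of Socs3. It was seen in 4 of the 12 targets, 4 of the 12 ESC markers and 10.0% of all genes. Pramel7 held it only by a difference of −0.021 of the heterologous from the homologous array, both below the median of all values.

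The other targets had other orders. Bcl3 was highest in parental ESCs too, with differences of −0.48, −0.42 and −0.37 ± 0.070 (SD, n = 2), but lowest in the homologous array. Myc was lower in the homologous array (−0.80) and higher in the heterologous array (0.33), the only target past 2-fold between these arrays, 1.12 apart, and the co-injection arrays were at 0.15 and −0.27 from parental ESCs, 0.43 apart. Fos had the highest difference of the list in the co-injection mean, at 0.81 ± 0.19 (SD, n = 2). Mcl1, which encodes an inhibitor of cell death, lay within 0.11 of parental ESCs in every array.

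**Figure D4:**
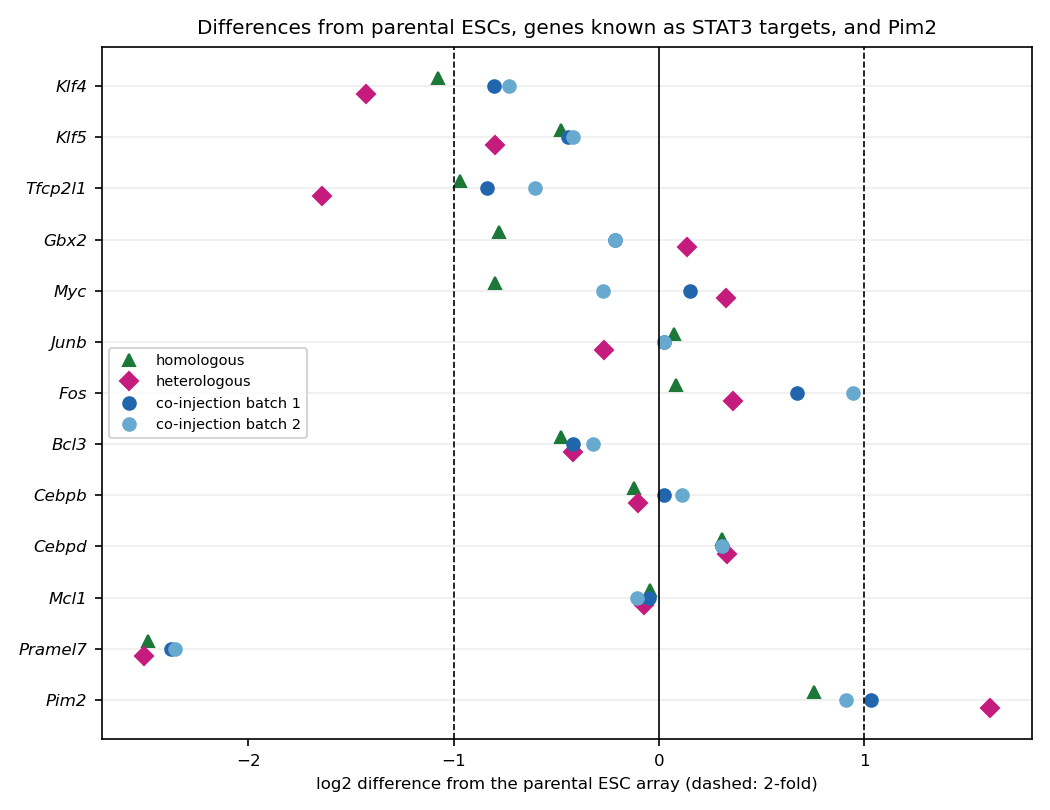
Log2 difference from the parental ESC array (horizontal axis) of 12 genes known as STAT3 targets and of Pim2 (vertical axis), 1 point per ESC-like array; dashed lines mark 2-fold. Pramel7 lies between −2.51 and −2.36 in the 4 arrays, and Klf4 and Tfcp2l1 are lowest in the heterologous array.

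A limma fit over all 19938 genes called none of the 9 genes, and 0% of all genes, at an adjusted p below 0.05 in any of the 5 comparisons. At an unadjusted p below 0.05 it held 6 of the 9 genes in the heterologous comparison with parental ESCs, where 34.3% of all genes passed, and 4 in the homologous (29.5% of all genes) and 4 in the co-injection comparison (28.8%). It held 5 between the heterologous and homologous arrays (27.5%) and 5 between the co-injection and heterologous arrays (32.7%). The fit takes its error from the co-injection pair alone, with 1 residual degree of freedom. For Osmr it gave a 95% interval of 1.85 to 4.24 for the heterologous difference (limma adjusted p = 0.076) and of 0.24 to 2.63 for the homologous one (limma adjusted p = 0.15). For Osmr in the co-injection arrays the interval was −1.67 to 0.41 against parental ESCs and −4.71 to −2.64 against the heterologous array (limma adjusted p = 0.27 and 0.098). The intervals of Stat3 lay between −0.16 and 0.25 in the comparisons with parental ESCs.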

How the data were processed

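Intensities of Affymetrix GeneChip Mouse Gene 1.0 ST arrays were read with GCOS and processed by RMA, which quantile-normalizes the arrays, and the authors deposited the resulting log2 values. For GCOS, RMA and the genome build no version was found in the labels or the methods. The table holds 35556 probe sets on 5 arrays, and array medians were between 7.48 and 7.54. The platform annotation gives exactly 1 symbol for 21789 probe sets, several for 1621 and none for 12146, and these 21789 stand for 19938 genes, each read from its brightest probe set. No further normalization was applied. Exactly equal values on 2 or more arrays occurred for 30.2% of genes, and on both co-injection arrays for 5.90%, but for none of the 9 genes described, so the spread of the pair can be too small.

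A difference is one log2 value, or the co-injection mean, minus another. The 2-fold rule is that of the study. limma (version 3.58.1, R 4.3.3, eBayes, Benjamini-Hochberg adjustment, 0.797 prior degrees of freedom) and the fold rule were tested on simulated data. The simulated noise was set from the co-injection pair alone, so it does not cover the unknown spread of the other conditions. Promoters come from RefSeq, and chromosomes from GRCm38.p6. All 9 genes matched by gene ID.

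The 9 genes and all lists were chosen with earlier results of these data known. Genes of the cytokine family, its pathway and the STAT3 targets were named where past 2-fold in 1 or more comparisons. Otherwise at most the highest and lowest of such a list were to be named. This rule did not cover the cell type markers, and most of those past 2-fold were not named. The 3 nearest genes were named for each of the 9 past 2-fold from parental ESCs in 1 or more arrays. They were sought among genes with a mean above the median of all values. Klf5, Mcl1 and some list members were named after their values were seen. Some genes of the lists were not analysed here, nor were protein sequences, and counts over a list cover the genes analysed. Alternatives were fold thresholds of 1.5 and 3, limma, cyclic loess, median centring, the mean of all probe sets of a gene, leaving out dim genes and leaving out each co-injection array. Other background corrections and a slide block could not be tried on this table. Python 3.11.15, numpy 2.4.6, pandas 2.3.3 and matplotlib 3.10.9 were used.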

Additional observations from a re-analysis of the deposited data

Results flagged for a closer look

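Osmr and Jak1 lay above parental ESCs in the heterologous array and below them in both co-injection arrays, each time by more than 0.21, the size that held 95% of the differences between the co-injection batches for genes above the median value. In the homologous array Osmr was also above by more than 0.21, and Jak1 was at 0.043. The co-injection batches differed by 0.33 for Osmr, and were at −0.80 and −0.46 from parental ESCs. Its parental and co-injection values were below the median of all values. For genes with a co-injection mean below that median, the bound of the pair was 0.29. For Osmr the homologous difference exceeded the co-injection mean by 2.06, and the difference between these groups was not tested. The heterologous difference of Osmr exceeded the co-injection mean by 3.67, with a limma adjusted p = 0.098. For Jak1 the heterologous array exceeded the co-injection mean by 0.83, with a limma adjusted p = 0.097.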

How the results depend on the processing

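Of the 9 genes, the numbers past the threshold moved with it. At 1.5-fold they were 2 in the homologous, 4 in the heterologous and 1 in the co-injection comparison with parental ESCs, 2 between the heterologous and homologous arrays and 2 between the co-injection and heterologous arrays. At 3-fold they were 0 in the homologous comparison (0.792% of all genes), 1 in the heterologous (2.23%), 0 in the co-injection (0.542%), 1 between heterologous and homologous arrays (0.908%) and 1 between co-injection and heterologous arrays (1.37%). limma called 0 in each of the 5, with 4, 6, 4, 5 and 5 of the 9 at an unadjusted p below 0.05, where 29.5%, 34.3%, 28.8%, 27.5% and 32.7% of all genes passed. Cyclic loess left 1 of 9 past 2-fold in the heterologous comparison, since Pim3 was then at −0.97. Cyclic loess and median centring gave median differences of the 9 genes of 0.13 and 0.050 for heterologous against parental arrays, 0.19 and 0.12 for heterologous against homologous arrays, and −0.13 and −0.012 for co-injection against heterologous arrays, where centring moved the median of all genes from 0.071 to 0.15. Averaging all probe sets of a gene changed no count past 2-fold. Of the 9 genes only Socs3 had more than 1 probe set, so this was no check on Osmr or Pim3. Leaving out genes with a low mean removed none of the 9, so it was no check on them, and Lif and Osmr passed it only through the heterologous array. Leaving out either co-injection array gave medians between −0.22 and −0.15 against parental ESCs and between −0.11 and −0.076 against the heterologous array, and no call changed. Signs changed only for differences of Lif, Stat3 and Pim1 of at most 0.031. No paired analysis was possible because only co-injection has more than 1 array. Without scanner files, signal over background was not analysed, so the error of dim values is unknown. Such values include Osmr and Il11 in parental and co-injection arrays, Osm in all arrays and Pramel7 in ESC-like arrays.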

Other observations

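Osmr and Lifr are next to each other among the measured genes of chromosome 15 in the GRCm38.p6 annotation, and they differed from parental ESCs in opposite directions in the heterologous array, at 3.05 and −0.68. Rictor, on the other side of Osmr, was at 0.33, and Egflam, on the other side of Lifr, at 0.021. Dab2, 4 places from Osmr, was at 3.09 in the heterologous array and at 1.75 in the homologous array, but unlike Osmr it was also higher in the co-injection mean, at 1.48. The 473 genes of chromosome 15 above the median value had a median difference of −0.055 in the heterologous array. These neighbours were chosen after their values were seen.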
